A study of Homo sapiens with 36 samples.

Results

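The 8 sterol sensing and cholesterol transport genes described here are INSIG1, INSIG2, SREBF1, SREBF2, SCAP, ABCA1, ABCG1 and MYLIP, taken by gene name alone from a count table of 29744 genes. All 8 were among the 14988 genes with enough reads to be tested. SREBF1 and SREBF2 encode the SREBP transcription factors, which are made as membrane proteins of the endoplasmic reticulum and are carried by SCAP to the Golgi, where proteases release the active part. When sterols are plentiful, the INSIG proteins hold SCAP and its SREBP cargo in the endoplasmic reticulum, so that genes for cholesterol synthesis and uptake are transcribed less. INSIG1 is itself a classical SREBP target, ABCA1 and ABCG1 export cholesterol from the cell and are classical targets of the oxysterol receptors LXR, and MYLIP, also called IDOL, is an LXR target, a ubiquitin ligase that limits the uptake of lipoproteins.

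Messenger RNA was sequenced from cells of BxPC-3, a line established from a human pancreatic adenocarcinoma and labelled wild type (WT), grown in medium with foetal bovine serum in every group. Cells received MS78, JQ1, TRAP1 or one of the compounds TRAP-1-NegB and TRAP-1-NegP, all at 3 µM, or DMSO as the control, each for 2 h and for 4 h, which gave 12 groups of 3 libraries and 36 libraries in all. JQ1 is an inhibitor of BET bromodomain proteins. TRAP1 here is a compound and not the gene of that name, and the labels do not say what NegB and NegP stand for. They also do not say whether the 3 libraries of a group came from separate cultures, so that p-values may measure technical spread only.

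Library totals ran from 15288688 to 26608325 estimated counts. The summed level of 6 epithelial markers was 8754 to 11604 TPM, a level scaled by transcript length and library, across the libraries, whereas summed macrophage markers reached at most 5.22 TPM, fibroblast markers 2.88 TPM, endothelial markers 3.62 TPM and hepatocyte markers 1.02 TPM. The hepatocyte marker TTR was at 0 in all 36 libraries. The first TRAP1 library at 4 h stood apart, with 1287 tested genes at 0 against 929 and 503 in the other TRAP1 libraries at 4 h, and the first MS78 library at 2 h differed more from its replicates (chi-square per degree of freedom 28.7 and 46.4) than any other pair did (4.55 to 15.5). In these bulk libraries, fewer cells of a kind and less RNA per cell cannot be told apart.

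Promoters are shown for 4 members whose levels moved in different ways, so that the letters at their starts can be read beside the values. Each line gives the 250 bases before the RefSeq transcription start on GRCh38.p14, 5′ to 3′ on the strand of the gene, with motif matches in capitals. They cover INSIG1 at chr7:155297628-155297877 on the plus strand, SREBF2 at chr22:41832855-41833104 on the plus strand, ABCA1 at chr9:104928156-104928405 on the minus strand and MYLIP at chr6:16128836-16129085 on the plus strand.
INSIG1: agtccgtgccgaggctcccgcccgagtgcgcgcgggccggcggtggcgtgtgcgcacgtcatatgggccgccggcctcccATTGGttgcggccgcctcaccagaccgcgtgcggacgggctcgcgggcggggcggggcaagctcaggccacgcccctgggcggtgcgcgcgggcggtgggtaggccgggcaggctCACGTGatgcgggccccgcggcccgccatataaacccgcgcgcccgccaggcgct
SREBF2: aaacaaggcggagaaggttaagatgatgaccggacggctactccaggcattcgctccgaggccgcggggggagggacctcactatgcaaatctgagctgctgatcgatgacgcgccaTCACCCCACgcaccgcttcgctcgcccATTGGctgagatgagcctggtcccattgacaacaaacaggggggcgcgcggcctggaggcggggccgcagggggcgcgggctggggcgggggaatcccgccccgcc
ABCA1: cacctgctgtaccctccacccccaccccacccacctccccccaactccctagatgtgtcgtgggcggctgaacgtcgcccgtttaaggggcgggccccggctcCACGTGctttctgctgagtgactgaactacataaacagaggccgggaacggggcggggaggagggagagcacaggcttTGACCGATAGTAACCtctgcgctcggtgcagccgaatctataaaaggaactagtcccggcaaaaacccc
MYLIP: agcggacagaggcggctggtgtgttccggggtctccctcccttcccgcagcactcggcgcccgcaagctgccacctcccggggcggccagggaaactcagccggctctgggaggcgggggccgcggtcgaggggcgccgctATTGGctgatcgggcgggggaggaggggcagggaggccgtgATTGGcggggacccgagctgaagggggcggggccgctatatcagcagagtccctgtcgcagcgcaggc

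The RefSeq promoter table matched 7 of the 8 genes, and ABCG1 is only named. Motifs were searched by their letters on both strands of 35116 promoters of this length. The sterol regulatory element TCACCCCAC, the kind of site first described for SREBP, was found in 0.362% of all promoters and, among the members, in SREBF2, from 133 to 125 bases before the start. The E-box CACGTG, which SREBP proteins and many other factors can bind, was in 6.34% of promoters, and INSIG1 carried it from 55 to 50 bases, ABCA1 from 147 to 142 bases and SCAP from 58 to 53 bases before the start. The CCAAT box, read here as ATTGG on the opposite strand, was in 32.0% of promoters. INSIG1 and SREBF2 each had 1 copy and MYLIP had 2. A pair of GGTNA half-sites spaced 5 bases apart, one spelling of the LXR element, was in 0.533% of promoters and in ABCA1 from 69 to 55 bases before the start. These matches describe letters in the windows and are not evidence of binding.

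Per length of transcript, SREBF1 was the highest member in DMSO-treated cells and ABCG1 the lowest. SREBF1 stood at 30.9 ± 3.59 TPM in DMSO at 2 h and 38.3 ± 2.88 TPM in DMSO at 4 h (SD, n = 3 each). SCAP followed with 23.9 ± 1.85 and 27.9 ± 1.22 TPM, and SREBF2 with 22.4 ± 0.473 and 22.4 ± 1.94 TPM, at 2 h and 4 h. Next came INSIG1 with 13.9 ± 1.34 and 12.1 ± 0.780 TPM and INSIG2 with 11.7 ± 0.782 and 10.2 ± 1.53 TPM, then MYLIP with 6.51 ± 0.953 and 4.32 ± 0.953 TPM and ABCA1 with 2.45 ± 0.243 and 2.00 ± 0.196 TPM. SCAP and SREBF2 overlapped in their libraries at 2 h, and INSIG1 and INSIG2 at both times, while the other neighbours in this order did not overlap. In TRAP-1-NegP at 4 h, INSIG1 reached 158 ± 9.11 TPM, above every other member in every group.

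Which members were called against DMSO differed by compound. A difference between such lists of calls is not a test between compounds, which are compared with each other further below. A gene was called changed at an adjusted p under 0.05 in edgeR's quasi-likelihood test with Benjamini-Hochberg adjustment over all genes tested. Against DMSO at 2 h, TRAP1 changed 3 of the 8 members, INSIG1, SCAP and MYLIP, all upward, beside 30.1% of all genes called. TRAP-1-NegB raised 1 and lowered 1, beside 10.9%. TRAP-1-NegP changed the most members, with 4 raised and 3 lowered, beside 30.3%. Every fit that left out 1 library called fewer members for TRAP-1-NegP, down to 3. JQ1 changed the same 3 as TRAP1, all upward, beside 28.8%, and MS78 raised 1 and lowered 1, beside 15.9%.

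At 4 h, TRAP1 raised 2 members and lowered 1, beside 46.7% of all genes called. TRAP-1-NegB raised 1 and lowered 1, beside 1.03%. TRAP-1-NegP raised 4 and lowered 2, beside 37.4%. JQ1 raised 2 and lowered 1, beside 48.9%, and MS78 raised 2 and lowered 3, beside 15.3%. For TRAP1 and JQ1 the counts at both times lay near or below the share of all genes and say nothing particular about these 8 genes as a group. The median log2 fold change of the 8 members against DMSO lay between −0.015 for JQ1 at 4 h and 0.34 for TRAP-1-NegP at 4 h, and that of all genes between −0.022 and 0.019. INSIG1 was called in all 10 comparisons with DMSO, MYLIP in 9, INSIG2, ABCA1 and SCAP in 4 each, SREBF2 in 3 and SREBF1 in 2. ABCG1 was called in 0 of the 10 by edgeR, and its unadjusted p was under 0.05 in 1 of them, TRAP-1-NegB at 4 h (0.0310).

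**Figure D1:**
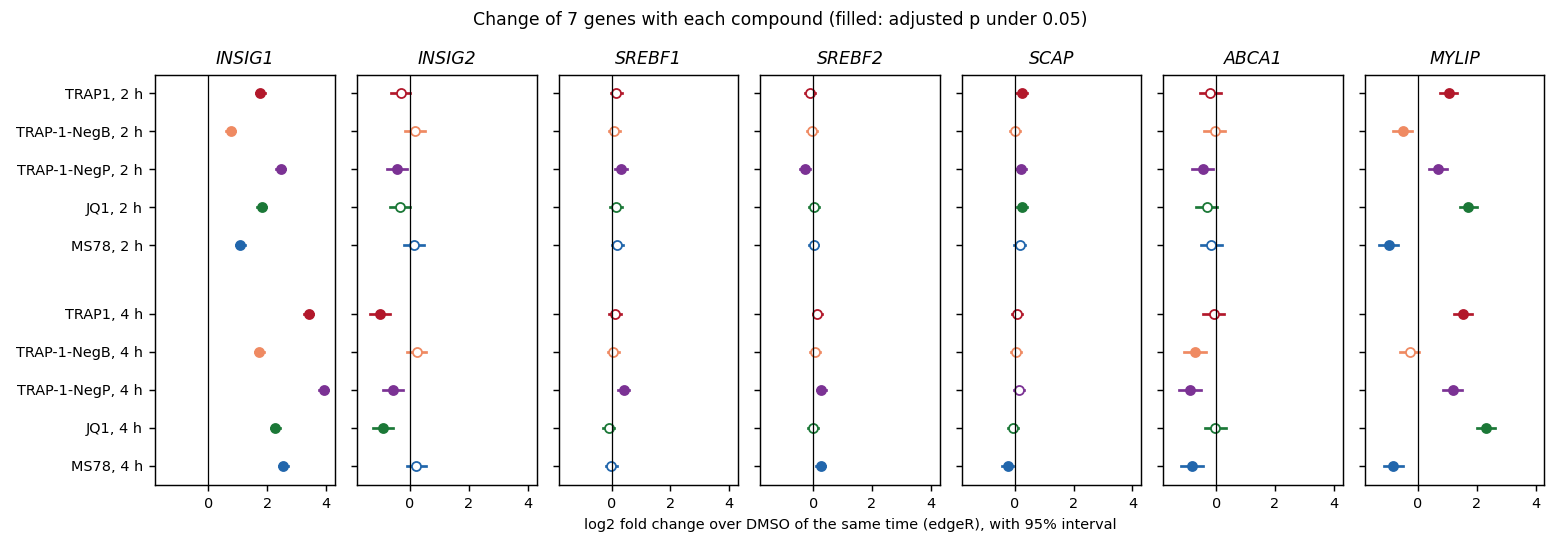
Log2 fold change against DMSO (x axis) of 7 members, each in its own panel, with 95% intervals. Rows are the compounds at 2 h (upper rows) and 4 h (lower rows), and filled points have an adjusted p under 0.05 (edgeR). INSIG1 lies to the right of 0 for all 5 compounds at both times, and MYLIP lies on both sides of 0.

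INSIG1 (chromosome 7, 155297776 to 155310235, plus strand; protein-coding like the other members, with positions from GENCODE release 29 on GRCh38), which retains SCAP in the endoplasmic reticulum, was the member that rose after every compound. Levels are given as CPM, read counts scaled to library size by the TMM method. At 2 h, INSIG1 stood at 88.5, 79.0 and 94.2 CPM in TRAP1, 42.4, 43.0 and 45.5 CPM in TRAP-1-NegB and 142, 144 and 141 CPM in TRAP-1-NegP libraries. It stood at 87.3, 90.7 and 94.6 CPM in JQ1 and 48.9, 57.6 and 57.7 CPM in MS78, against 27.6, 23.0 and 27.2 CPM in DMSO. Every library of each compound lay above every DMSO library.

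By 4 h the INSIG1 levels of the compounds were wider apart. TRAP1 libraries held 277, 247 and 265 CPM, TRAP-1-NegB libraries 87.6, 78.7 and 80.2 CPM and TRAP-1-NegP libraries 362, 396 and 369 CPM. JQ1 libraries held 118, 121 and 123 CPM and MS78 libraries 149, 145 and 141 CPM, against 24.7, 26.9 and 23.3 CPM in DMSO libraries. None of the 6 groups overlapped with another at 4 h, and TRAP-1-NegP was highest. The log2 fold change at 4 h was 3.40 for TRAP1 (SE 0.079, adjusted p 7.84e-39), 1.72 for TRAP-1-NegB (adjusted p 2.89e-24), 3.91 for TRAP-1-NegP (SE 0.081, adjusted p 2.75e-41), 2.27 for JQ1 (adjusted p 4.58e-31) and 2.54 for MS78 (adjusted p 1.90e-32), which is 3.29-fold for TRAP-1-NegB and 15.1-fold for TRAP-1-NegP.

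At 2 h the order of INSIG1 changes was the same at its top and bottom and different in between. The log2 fold change was 2.45 for TRAP-1-NegP (adjusted p 6.34e-32), 1.81 for JQ1 (adjusted p 2.74e-26), 1.75 for TRAP1 (adjusted p 1.37e-25), 1.08 for MS78 (adjusted p 2.95e-15) and 0.75 for TRAP-1-NegB (adjusted p 1.02e-10). JQ1, next to the top at 2 h, was below TRAP1 and MS78 at 4 h.

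**Figure D2:**
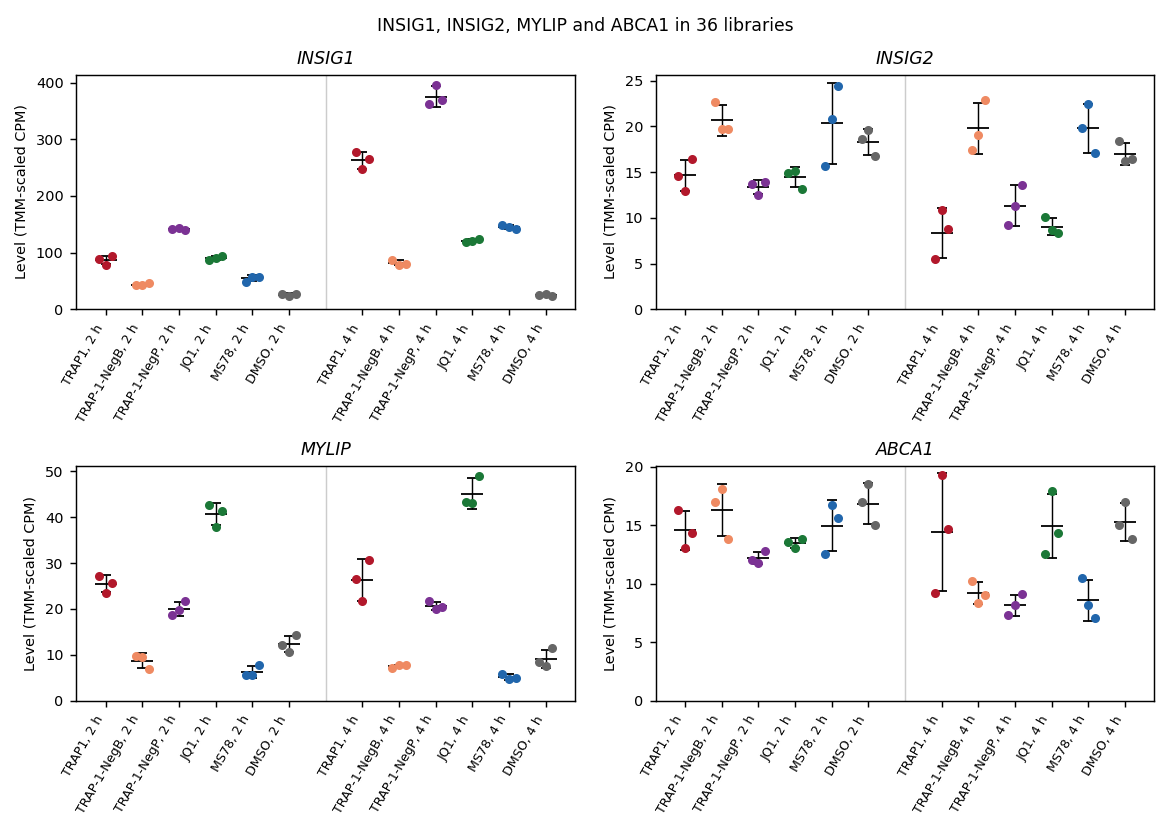
TMM-scaled CPM (y axis) of INSIG1, INSIG2, MYLIP and ABCA1 in each group at 2 h and 4 h; points are libraries, bars the mean ± SD of 3. INSIG1 in TRAP-1-NegP at 4 h lies at 362 to 396 CPM, while INSIG2 is low in TRAP1, TRAP-1-NegP and JQ1 at 4 h.

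INSIG2 (chromosome 2, 118088452 to 118110997, plus strand), a relative of INSIG1 that also binds SCAP, went the other way. It fell after 3 of the compounds at 4 h and after TRAP-1-NegP at 2 h. At 4 h, INSIG2 stood at 5.49, 10.9 and 8.74 CPM in TRAP1, 9.19, 11.3 and 13.6 CPM in TRAP-1-NegP and 10.1, 8.63 and 8.33 CPM in JQ1, against 18.4, 16.2 and 16.4 CPM in DMSO. The libraries of these 3 compounds all lay below those of DMSO. TRAP-1-NegB, with 17.5, 19.0 and 22.8 CPM, and MS78, with 19.8, 22.5 and 17.1 CPM, overlapped with DMSO.

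The INSIG2 log2 fold change at 4 h was −1.02 for TRAP1 (SE 0.18, adjusted p 2.32e-06), −0.91 for JQ1 (adjusted p 1.47e-05) and −0.59 for TRAP-1-NegP (adjusted p 0.00519). Without the first TRAP-1-NegP library at 4 h, the last of these was −0.46 with an adjusted p of 0.0601. At 2 h the TRAP-1-NegP value was −0.45 (adjusted p 0.0368), a call that was lost in 5 of the 6 fits that left out 1 library. Thus the 2 INSIG genes moved in opposite directions after TRAP1, TRAP-1-NegP and JQ1 at 4 h, while after TRAP-1-NegB and MS78 INSIG1 was called higher and INSIG2 made no call, with log2 values of 0.22 for both compounds (adjusted p 0.729 and 0.430).

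The transcription factor genes SREBF1 and SREBF2 and their escort SCAP moved by much less than INSIG1. SREBF1 (chromosome 17, 17810399 to 17837002, minus strand) rose after TRAP-1-NegP at both times. At 2 h it stood at 127, 106 and 114 CPM in TRAP-1-NegP and 92.0, 82.8 and 104 CPM in DMSO, a log2 fold change of 0.32 (adjusted p 0.00892) that was lost in 2 of 6 fits without 1 library. At 4 h it stood at 165, 172 and 171 CPM in TRAP-1-NegP and 125, 120 and 137 CPM in DMSO, a log2 fold change of 0.41 (adjusted p 0.000537). The TRAP-1-NegP libraries lay above those of DMSO at both times. On the authors' TPM scale the 4 h log2 ratio of SREBF1 was 0.20.

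SREBF1 was not called after TRAP1 at 4 h, where its libraries held 114, 143 and 157 CPM. The log2 fold change of 0.12 (adjusted p 0.338) was 0.24 (adjusted p 0.0290) without the first TRAP1 library. On the authors' TPM scale the SREBF1 ratio was −0.24, and the median over genes of the TPM ratio less the CPM ratio was −0.35 for TRAP1 at 4 h, so that the sign of the small SREBF1 value depended on the scale. SREBF1 shares 556 exonic bases with RAI1 on the opposite strand, and the sources used here do not say whether counting used strand.

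SREBF2 (chromosome 22, 41833079 to 41907308, plus strand) had values of opposite sign at the 2 times after TRAP-1-NegP. At 2 h it stood at 62.3, 61.5 and 66.1 CPM in TRAP-1-NegP, all below the 77.7, 74.0 and 76.5 CPM in DMSO, a log2 fold change of −0.26 (adjusted p 0.0109). At 4 h it stood at 102, 101 and 104 CPM in TRAP-1-NegP, all above the 89.4, 80.1 and 82.9 CPM in DMSO, a log2 fold change of 0.28 (adjusted p 0.00480). MS78 at 4 h gave 98.8, 101 and 101 CPM and a log2 fold change of 0.26 (adjusted p 0.0241), a call lost in 4 of 6 fits without 1 library. On the TPM scale the TRAP-1-NegP ratios of SREBF2 were −0.44 at 2 h and 0.07 at 4 h, with scale shifts over all genes of −0.18 and −0.21. SREBF2 shares 280 exonic bases with its antisense gene.

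**Figure D3:**
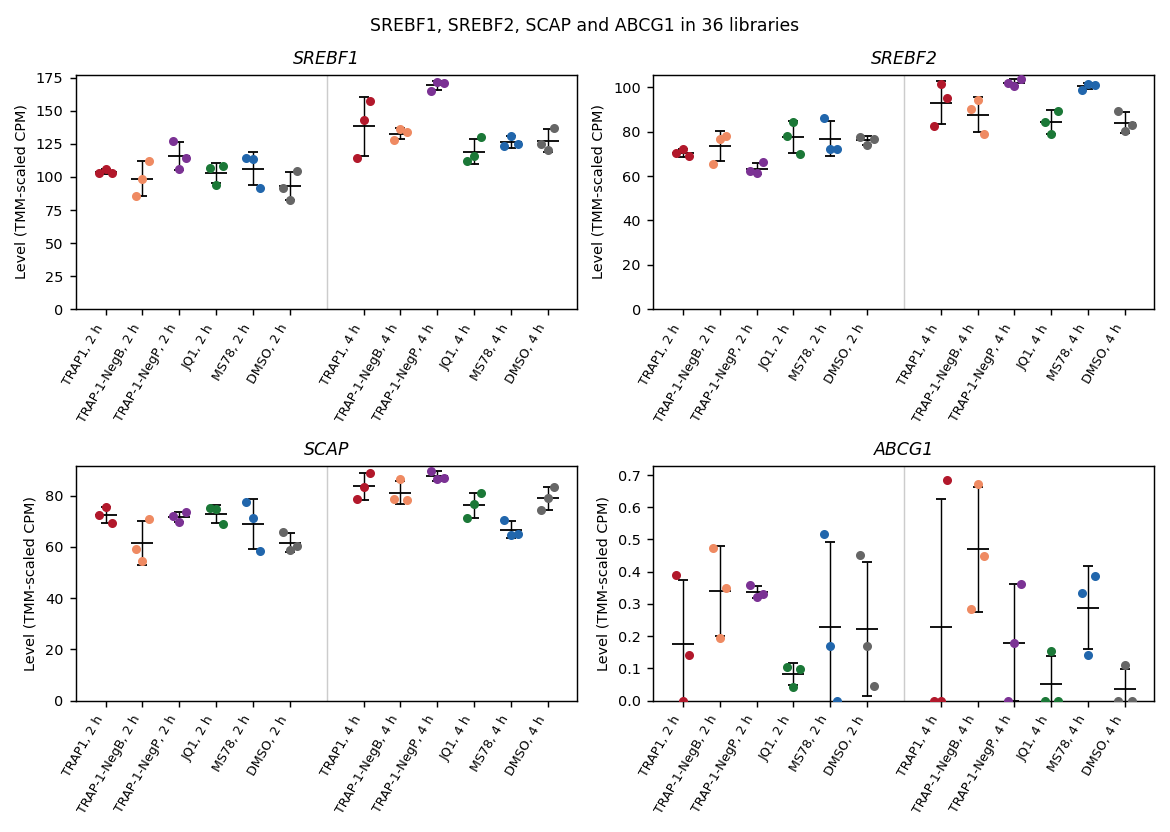
TMM-scaled CPM (y axis) of SREBF1, SREBF2, SCAP and ABCG1 in each group at 2 h and 4 h. Points are libraries, bars the mean ± SD of 3. SREBF2 in TRAP-1-NegP lies below DMSO at 2 h (61.5 to 66.1 CPM) and above it at 4 h (101 to 104 CPM).

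SCAP (chromosome 3, 47413694 to 47477126, minus strand), which carries SREBP proteins to the Golgi, rose slightly after 3 compounds at 2 h. It stood at 72.5, 75.4 and 69.1 CPM in TRAP1, 72.0, 69.7 and 73.5 CPM in TRAP-1-NegP and 75.0, 74.8 and 68.8 CPM in JQ1, against 65.8, 58.6 and 60.3 CPM in DMSO. All 9 libraries of these compounds lay above the DMSO libraries. The log2 fold change was 0.23 for TRAP1 (adjusted p 0.0344), 0.22 for TRAP-1-NegP (adjusted p 0.0464) and 0.24 for JQ1 (adjusted p 0.0269), and these calls were lost in 4, 5 and 4 of 6 fits without 1 library. After MS78 at 4 h SCAP fell by 0.24 on the log2 scale (adjusted p 0.0466), a call that was lost in all 6 such fits, with a log2 ratio of −0.10 on the TPM scale.

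ABCA1 (chromosome 9, 104781002 to 104928237, minus strand), the transporter that loads cellular cholesterol onto apolipoproteins, fell after TRAP-1-NegP, TRAP-1-NegB and MS78 at 4 h. Its level was 10.2, 8.38 and 9.03 CPM in TRAP-1-NegB, 7.28, 8.13 and 9.09 CPM in TRAP-1-NegP and 10.5, 8.19 and 7.02 CPM in MS78, against 15, 17.0 and 13.8 CPM in DMSO. The libraries of these 3 compounds lay below the DMSO libraries. The log2 fold change was −0.90 for TRAP-1-NegP (adjusted p 7.73e-05), −0.83 for MS78 (adjusted p 0.000931) and −0.73 for TRAP-1-NegB (adjusted p 0.0278), and the last of these was lost in 4 of 6 fits without 1 library. TRAP1, with 9.23, 19.3 and 14.6 CPM, and JQ1, with 12.5, 17.9 and 14.4 CPM, overlapped with DMSO at 4 h, with log2 values of −0.084 (adjusted p 0.742, 95% interval −0.44 to 0.28) and −0.03 (adjusted p 0.908, 95% interval −0.39 to 0.33). At 2 h ABCA1 was called lower after TRAP-1-NegP, at −0.46 (adjusted p 0.0454), and this was lost in 5 of 6 fits without 1 library.

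ABCG1 (chromosome 21, 42199689 to 42297244, plus strand), which passes cholesterol to lipoprotein particles, was barely detected. Its estimated counts rounded to 0 in 9 of the 36 libraries and reached 14 at most. At 4 h the rounded counts were 6, 13 and 11 in TRAP-1-NegB and 7, 3 and 8 in MS78, against 0, 2 and 0 in DMSO. Both compounds' libraries lay above those of DMSO, yet the adjusted p was 0.429 for TRAP-1-NegB and 0.248 for MS78, and a difference was not detectable at this depth.

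MYLIP (chromosome 6, 16129125 to 16148248, plus strand), the ubiquitin ligase that limits lipoprotein uptake, split the compounds by direction. At 2 h it stood at 27.3, 23.5 and 25.7 CPM in TRAP1, 18.6, 19.8 and 21.7 CPM in TRAP-1-NegP and 42.7, 37.9 and 41.4 CPM in JQ1, against 12.2, 10.7 and 14.3 CPM in DMSO. It stood at 9.72, 9.49 and 6.78 CPM in TRAP-1-NegB and 5.48, 5.54 and 7.74 CPM in MS78 at the same time. The first 3 compounds lay above DMSO and the other 2 below it, without overlap.

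At 4 h MYLIP stood at 26.6, 21.7 and 30.7 CPM in TRAP1, 21.7, 20.1 and 20.3 CPM in TRAP-1-NegP and 43.3, 43.1 and 48.99 CPM in JQ1, against 8.34, 7.60 and 11.4 CPM in DMSO. MS78, at 5.78, 4.71 and 4.89 CPM, was again below DMSO, and TRAP-1-NegB, at 7.19, 7.66 and 7.68 CPM, overlapped with it. JQ1 gave the highest MYLIP at both times, with a log2 fold change of 1.72 at 2 h (adjusted p 5.56e-14) and 2.31 at 4 h (adjusted p 8.06e-19), which is 3.29-fold and 4.94-fold. TRAP1 gave 1.04 (adjusted p 1.02e-07) and 1.53 (adjusted p 2.04e-12), and TRAP-1-NegP gave 0.70 (adjusted p 0.000205) and 1.18 (adjusted p 7.36e-09). MYLIP fell by 0.99 on the log2 scale after MS78 at 2 h (adjusted p 7.60e-06) and by 0.83 at 4 h (adjusted p 0.000264). After TRAP-1-NegB it fell by 0.52 at 2 h (adjusted p 0.0197), a call lost in 3 of 6 fits without 1 library, and the 4 h value of −0.28 was not called (adjusted p 0.586). INSIG1 and MYLIP therefore both rose after TRAP1, TRAP-1-NegP and JQ1, whereas after MS78 INSIG1 rose and MYLIP fell.

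Compounds were next compared with each other at the same dose and time in 6 pairs at each time, 12 in all, with p-values of each member also adjusted over those 12. At 2 h, TRAP1 against TRAP-1-NegP gave 1 called member, which was lower, beside 0.801% of all genes called. TRAP1 against TRAP-1-NegB had 3 higher and 1 lower, beside 20.7%, TRAP1 against JQ1 gave 1, which was lower, beside 1.99%, and TRAP1 against MS78 had 2 higher and 1 lower, beside 22.6%. JQ1 against TRAP-1-NegP had 2 higher and 1 lower, beside 12.9%, and TRAP-1-NegP against TRAP-1-NegB had 2 higher and 2 lower, beside 25.6%. The single gene lower in TRAP1 than in TRAP-1-NegP was INSIG1, and the single gene lower in TRAP1 than in JQ1 was MYLIP.

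At 4 h, TRAP1 against TRAP-1-NegP had 1 member higher and 2 lower, beside 15.3% of all genes called. TRAP1 against TRAP-1-NegB had 3 higher and 1 lower, beside 46.1%, TRAP1 against JQ1 had 1 higher and 1 lower, beside 27.4%, and TRAP1 against MS78 had 4 higher and 1 lower, beside 49.3%. JQ1 against TRAP-1-NegP had 2 higher and 3 lower, beside 25.7%, and TRAP-1-NegP against TRAP-1-NegB had 4 higher and 1 lower, beside 36.5%. Over the 12 pairs INSIG1 was called in 11, MYLIP in 10, INSIG2 in 6, ABCA1 and SREBF2 in 4 each, SREBF1 in 3 and SCAP in 2.

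For INSIG1, TRAP1 lay below TRAP-1-NegP by a log2 difference of −0.70 at 2 h (95% interval −0.85 to −0.56; p adjusted over 12 pairs in edgeR 2.31e-13) and −0.51 at 4 h (95% interval −0.65 to −0.37; p adjusted over 12 pairs 1.09e-09). TRAP1 and JQ1 did not differ detectably in INSIG1 at 2 h, with −0.06 (95% interval −0.20 to 0.09; p adjusted over 12 pairs 0.418), an interval that still leaves room for a small difference. By 4 h TRAP1 was higher than JQ1 by 1.12 (95% interval 0.98 to 1.27). TRAP1 was above TRAP-1-NegB by 1.00 at 2 h and 1.68 at 4 h, and above MS78 by 0.68 and 0.86. TRAP-1-NegP was above TRAP-1-NegB by 1.70 at 2 h and 2.19 at 4 h, and JQ1 was below TRAP-1-NegP by a log2 difference of −0.64 and −1.64.

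INSIG2 was lower in TRAP1 than in TRAP-1-NegB by −0.49 at 2 h (95% interval −0.83 to −0.16; adjusted p 0.0283; lost without the first TRAP-1-NegB library or without the first or the second TRAP1 library, at 0.125, 0.0799 and 0.122) and −1.24 at 4 h (95% interval −1.59 to −0.89; adjusted p 3.27e-08). Against MS78 it was lower in TRAP1 by −1.24 at 4 h (adjusted p 2.86e-08). The 2 h value of −0.47 (adjusted p 0.0367) was lost in 4 of 6 fits without 1 library, with length-scaled counts (adjusted p 0.0827) and with only the groups compared (adjusted p 0.125). TRAP-1-NegP was below TRAP-1-NegB by −0.62 and −0.81. Between TRAP1 and TRAP-1-NegP at 4 h the INSIG2 difference of −0.43 (95% interval −0.79 to −0.08) had an adjusted p of 0.0923 over all genes and 0.0318 over the 12 pairs. TRAP1 and JQ1 differed in INSIG2 by −0.11 at 4 h, with a 95% interval of −0.47 to 0.26.

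MYLIP was lower in TRAP1 than in JQ1 by a log2 difference of −0.67 at 2 h (95% interval −0.96 to −0.38; adjusted p 0.00310) and −0.78 at 4 h (95% interval −1.07 to −0.49; adjusted p 2.65e-05). JQ1 exceeded TRAP-1-NegP by 1.02 and 1.12, TRAP1 exceeded TRAP-1-NegB by 1.56 and 1.81, and TRAP1 exceeded MS78 by 2.03 and 2.36, at 2 h and 4 h. TRAP1 and TRAP-1-NegP differed by 0.35 at each time, with 95% intervals of 0.06 to 0.64 and 0.05 to 0.64; the p adjusted over the 12 pairs was 0.0214 for both, and over all genes 0.333 and 0.101.

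ABCA1 was called between compounds in 4 pairs, all at 4 h. TRAP1 was above TRAP-1-NegP by 0.82 (95% interval 0.45 to 1.19; adjusted p 0.00108), above TRAP-1-NegB by 0.64 (95% interval 0.27 to 1.01; adjusted p 0.00300) and above MS78 by 0.75 (95% interval 0.38 to 1.12; adjusted p 0.000575). These 3 calls rested on the second TRAP1 library, at 19.3 CPM; without it the differences were 0.54, 0.36 and 0.45, with adjusted p of 0.0568, 0.132 and 0.0564. JQ1 was above TRAP-1-NegP in ABCA1 by 0.87 (95% interval 0.50 to 1.25; adjusted p 0.000339). TRAP-1-NegP and TRAP-1-NegB differed by −0.18, with a 95% interval of −0.55 to 0.20.

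**Figure D4:**
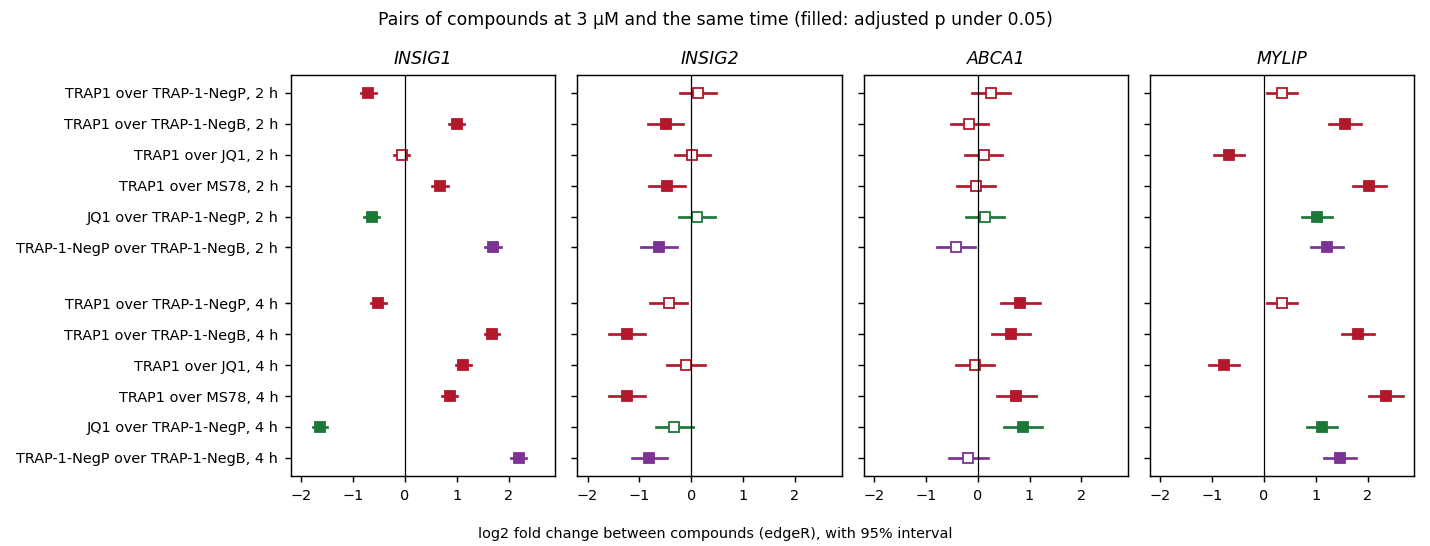
Log2 difference (x axis) between compounds in INSIG1, INSIG2, ABCA1 and MYLIP, each in its own panel, with 95% intervals. Rows are the 6 pairs at 2 h (upper rows) and 4 h (lower rows), and filled points have an adjusted p under 0.05 (edgeR). For INSIG1, TRAP1 lies below TRAP-1-NegP at both times (−0.70 and −0.51), and MYLIP is lower in TRAP1 than in JQ1 (−0.67 and −0.78).

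SREBF1 at 4 h was higher in TRAP-1-NegP than in TRAP-1-NegB by 0.35 (adjusted p 0.00278), and JQ1 was below TRAP-1-NegP by a log2 difference of −0.50 (adjusted p 0.000102). It was also lower in TRAP1 than in TRAP-1-NegP by −0.29 (adjusted p 0.0280), which became −0.17 (adjusted p 0.244) without the first TRAP1 library and was lost in 3 of 6 fits without 1 library. SREBF2 was higher in JQ1 than in TRAP-1-NegP at 2 h, by 0.29 (adjusted p 0.0125), a call lost in 3 of 6 fits without 1 library, and lower at 4 h, by −0.28 (adjusted p 0.00838), a call lost without the second JQ1 library (adjusted p 0.0666). SCAP at 4 h was higher in TRAP1 than in MS78 by 0.32 (adjusted p 0.00128).

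Changes between 2 h and 4 h were tested as the difference of the 2 effects against DMSO. After TRAP1 the log2 value was higher at 4 h for 1 member and lower for 1, beside 22.0% of all genes called. TRAP-1-NegB had 1 member called, beside 2.48%, TRAP-1-NegP 2, beside 23.2%, and JQ1 2, beside 26.0%, all with a higher value at 4 h, and MS78 had 1 higher and 1 lower, beside 15.2%. INSIG1 was called for each compound, with the largest difference of 1.65 for TRAP1 (adjusted p 9.58e-18) and the smallest of 0.47 for JQ1 (adjusted p 0.000679). SREBF2 after TRAP-1-NegP had a difference of 0.54 (adjusted p 0.000333). This tests that its 2 effects differ, and not that their signs are opposite. In DMSO itself, 2 members were higher and 1 lower at 4 h than at 2 h, beside 20.8% of all genes called. SREBF1 was higher by 0.46 (adjusted p 0.000441), SCAP by 0.36 (adjusted p 0.00154), and MYLIP was lower, by −0.44 (adjusted p 0.0349) with overlapping libraries. The MYLIP call was lost in 4 of 6 fits without 1 library and with only the groups compared (adjusted p 0.0595).

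Transcripts were tested at 4 h in the same way, over all those with enough reads, and Salmon's division of reads among isoforms is not part of the error. The most abundant INSIG1 transcript made up 83.8% of INSIG1 TPM in TRAP1, 83.9% in TRAP-1-NegP and 87.1% in JQ1, against 85.1% in DMSO. It rose by 3.32 on the log2 scale after TRAP1 (adjusted p 1.26e-15), by 3.86 after TRAP-1-NegP (adjusted p 1.54e-16) and by 2.29 after JQ1 (adjusted p 1.29e-12), so the gene-level rise was carried by the same main transcript with a similar share. This was the only transcript of a member called after TRAP1 and after JQ1, beside 8.17% and 8.22% of all transcripts called. A single call among the members' transcripts says nothing particular about them as a group. After TRAP-1-NegP, the most abundant SREBF2 transcript was also called, at 0.27 (adjusted p 0.0324), beside 5.23% of all transcripts. That SREBF2 call was lost in every fit that left out a library and with no count filter.

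The genes whose group means over the 12 groups followed a member most closely are given as a description; the groups share libraries, scaling and times. INSIG1 had Pearson correlations of 0.95 with IDI1, 0.93 with SQLE and 0.92 with PDHB. IDI1 and SQLE are enzymes of cholesterol synthesis. INSIG2 was closest to DCLRE1A (0.99), ZNF395 and KIAA0753 (0.98 each), and MYLIP to CCRN4L, RGMB and PFKFB3 (0.97 each). SREBF1 was closest to TBC1D17 (0.98), MVD and TOM1 (0.96 each), SREBF2 to MED31 (0.93), GABARAPL1 (0.91) and WIPI2 (0.90), SCAP to RPS6KA1, NFKB2 and SCAMP2 (0.97 each), and ABCA1 to KIAA1841 (0.92), COL27A1 (0.86) and SNX18 (0.85). Among the members, SREBF1 and SCAP had a correlation of 0.85 and INSIG2 and MYLIP one of −0.81. ABCG1 was left out here because of its few counts.

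Around the members, 5 lists of other genes of these pathways are described by their counts against DMSO, to be read beside the 46.7% of all genes called after TRAP1, 37.4% after TRAP-1-NegP and 48.9% after JQ1 at 4 h. A gene is named for a compound by its rank there, so that it may have moved the same way after another compound. A list of 23 tested genes covers SREBP transport and cleavage, with vesicle-coat genes, and the turnover of SREBP, INSIG and SCAP. Of these, 6 rose and 7 fell after TRAP1 at 4 h (median log2 fold change −0.07). After TRAP-1-NegP 7 rose and 5 fell (0.02), and after JQ1 12 rose and 7 fell (0.27). The 13 of 23 genes called after TRAP1 and 12 of 23 after TRAP-1-NegP lie moderately above those shares. After JQ1 the 12 raised and 7 lowered genes lie further above its 48.9%. FBXW7, which marks active SREBP for degradation, rose by 1.61 after TRAP1 and 0.90 after JQ1. The mean level of FBXW7 in TRAP-1-NegP was 14.2 CPM against 8.93 CPM in DMSO. PGRMC1, a haem-binding membrane protein, rose by 0.67 after TRAP1, 0.43 after TRAP-1-NegP and 0.74 after JQ1. C12orf49, needed for SREBP processing, rose by 0.55 after TRAP-1-NegP and 0.82 after JQ1. The ubiquitin-conjugating enzyme UBE2J2 fell by 0.78, 0.43 and 0.68 after TRAP1, TRAP-1-NegP and JQ1, and TMUB1 fell by 0.92, 0.73 and 1.19. RNF145, a ubiquitin ligase of SCAP, fell by 0.74 after TRAP1 and 0.57 after TRAP-1-NegP, and AUP1 fell by 0.39 after JQ1. The mean level of RNF145 in JQ1 was 42.4 CPM against 61.4 CPM in DMSO.

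Among 15 tested LXR receptors, partners and target genes, 3 rose and 6 fell after TRAP1 at 4 h (median −0.35), 3 rose and 5 fell after TRAP-1-NegP (−0.18) and 3 rose and 3 fell after JQ1 (−0.10), the last a share of the list below the 48.9% of all genes. RXRA, which pairs with LXR on DNA, fell by 1.08, 0.81 and 1.03 after TRAP1, TRAP-1-NegP and JQ1, and RXRB fell by 0.76 after TRAP1 and 1.05 after JQ1. The receptor gene NR1H2 fell by 0.54 after TRAP1 (adjusted p 1.12e-05) and by 0.67 after JQ1, with −0.18 after TRAP-1-NegP (adjusted p 0.163). NR1H3, the other LXR gene, had −0.48, −0.49 and −0.68 and was not called (adjusted p 0.273, 0.293 and 0.110). The corepressor NCOR1 fell by 0.45 after TRAP-1-NegP, and its mean level in TRAP1 was 36.5 CPM against 46.6 CPM in DMSO. LPCAT3, a phospholipid-remodelling LXR target, rose by 0.58, 0.59 and 0.65, and PLTP by 0.65, 0.33 and 0.24, after TRAP1, TRAP-1-NegP and JQ1. MLXIPL was called higher after all 3 at mean levels of 0.312, 0.391 and 0.808 CPM, with 0 in the 3 DMSO libraries.

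Of 30 genes of cholesterol uptake, transport and esterification, 14 rose and 5 fell after TRAP1 at 4 h (median 0.25), 14 rose and 3 fell after TRAP-1-NegP (0.28) and 15 rose and 4 fell after JQ1 (0.24). STARD5, a sterol-binding protein, rose by 2.16 after TRAP1 and 1.62 after TRAP-1-NegP. NPC1, which exports cholesterol from lysosomes, rose by 1.01 after TRAP-1-NegP and 1.10 after JQ1, its partner NPC2 by 0.75 after TRAP1, and the cholesteryl ester hydrolase NCEH1 by 1.44 after JQ1. These moves were not limited to the compounds named. Mean NCEH1 was 92.0 CPM in TRAP1 and 77.6 CPM in TRAP-1-NegP against 43.9 CPM in DMSO. Mean NPC1 was 92.3 CPM in TRAP1 against 49.4 CPM in DMSO, and mean STARD5 28.9 CPM in JQ1 against 10.0 CPM in DMSO. OSBPL2 fell by 0.38 after TRAP1 and after JQ1, LRP1 by 0.33 after TRAP1 and 0.45 after TRAP-1-NegP, ABCC1 by 0.26 after TRAP1, CAV1 by 0.27 after TRAP-1-NegP and STARD3 by 0.33 after JQ1. GRAMD1B, at 0.649 CPM in TRAP-1-NegP and 0.638 CPM in JQ1 against 3.36 CPM in DMSO, fell by 2.41 and 2.37. Its mean level in TRAP1 was 0.516 CPM.

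The 21 cholesterol synthesis enzymes are a group whose genes are SREBP targets as INSIG1 is. Of these, 19 rose and 1 fell after TRAP1 at 4 h (median 0.52), beside 46.7% of all genes called. After TRAP-1-NegB 9 rose (0.33), beside 1.03%, and after TRAP-1-NegP 17 rose and 1 fell (0.84), beside 37.4%. After JQ1 12 rose and 4 fell (0.25), beside 48.9%, and after MS78 16 rose and 1 fell (0.50), beside 15.3%. Of 13 fatty acid synthesis genes, 6 rose and 2 fell at 4 h after TRAP1 (median 0.25), after TRAP-1-NegP (0.44) and after JQ1 (0.475). FASN, the fatty acid synthase, rose by 0.99, 1.19 and 0.76 after these compounds. At 2 h, 10 cholesterol synthesis enzymes rose after TRAP1 and 12 after TRAP-1-NegP, beside 30.1% and 30.3% of all genes called. In the list of 23 genes of SREBP transport, cleavage and turnover, 2 rose and 7 fell after TRAP1. After TRAP-1-NegP 1 rose and 7 fell. The counts of the 23 genes lie near those shares. The median over all genes tested was −0.022 for TRAP1, −0.015 for TRAP-1-NegP and −0.012 for JQ1 at 4 h. The comparisons with DMSO at one time share the same 3 DMSO libraries.

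**Figure D5:**
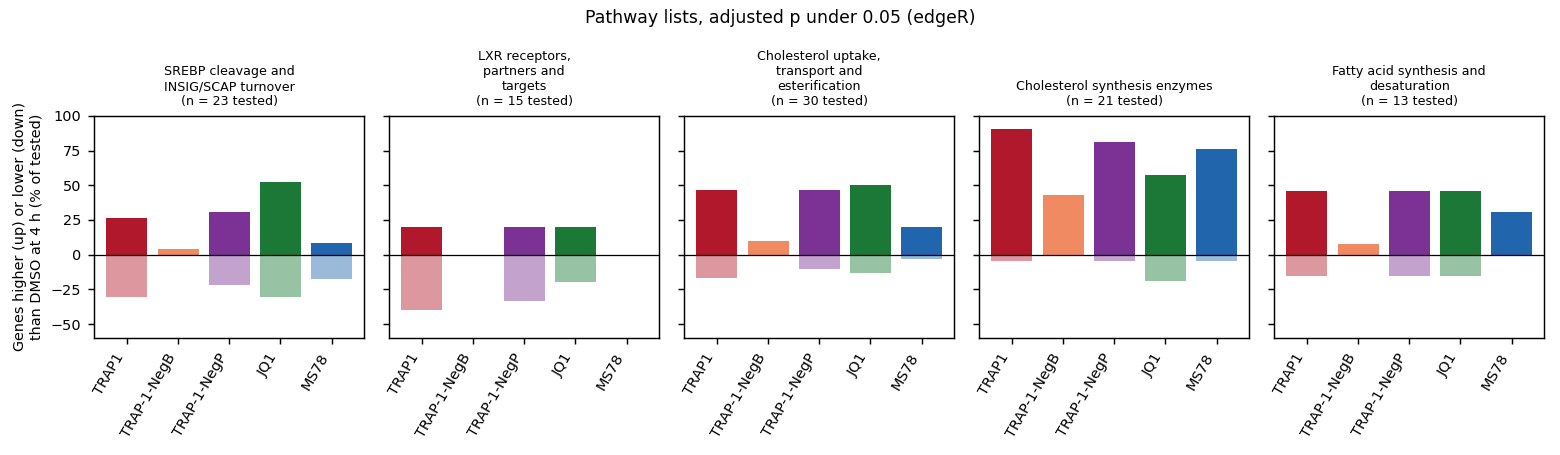
Percent of the tested genes of each of 5 lists (y axis, bars from 0) that rose (full colour) or fell (pale) against DMSO at 4 h, by compound. Bars stand for counts over genes and carry no error; the cholesterol synthesis list has the tallest risen bars, 19 of 21 genes after TRAP1.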

How the data were processed

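Polyadenylated RNA was sequenced as paired reads of 150 bases. Per the submitters' processing notes, the authors used nf-core/rnaseq 3.18.0 with Salmon 1.10.3 on hg38; the annotation release and strand use are not given in the sources used here. Estimated counts per gene and per transcript were deposited by the authors; they need not be whole and were rounded here. The deposited TPM values of the authors were used where levels of different genes were set side by side and as a second scale.

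Groups were taken from the labels. Genes passing edgeR's filterByExpr (minimum count 10) were scaled by TMM and fitted together over all 36 libraries with 12 group means by the quasi-likelihood method in edgeR 4.0.16 (R 4.3.3). This gave 10 comparisons with DMSO, 12 compound pairs, 5 time differences and 1 comparison of DMSO over time, all two-sided, with Benjamini-Hochberg adjustment over all genes and a threshold of 0.05. The common biological coefficient of variation was 0.135. Library totals of 15288688 to 26608325 set the precision. Transcripts were tested in the same way. Alternatives were DESeq2 1.42.0, DESeq2 size factors, no filter, length-scaled counts, a replicate block, only the groups compared, and leaving out libraries. On simulated data for TRAP1 against DMSO at 4 h (14541 genes, 200 changed), 77% of 1.5-fold and 100% of 3-fold changes were recovered, with 7 calls outside the changed genes. The changed genes all had a mean of at least 5 CPM, a level ABCG1 did not reach. In the data 46.7% of genes were called in this comparison, so these figures need not carry over to it.

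The members and lists were chosen with earlier results of these data known. All 8 members are named; of each list, up to 3 genes per direction are named by smallest adjusted p after TRAP1, TRAP-1-NegP or JQ1 at 4 h, with NR1H2 and NR1H3 always named. Some genes that these rules name are not reported here. Genes like INSIG1 (5) or like another member (3 each) were ranked by Pearson correlation among genes with a mean of at least 5 CPM. Of the named list genes, most of the cholesterol and fatty acid synthesis genes are given by their counts only.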

Additional observations from a re-analysis of the deposited data

Results flagged for a closer look

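In 9 cases the effect of a compound against DMSO differed between 4 h and 2 h by edgeR's test of that difference, with Benjamini-Hochberg adjustment over all genes. INSIG1 accounted for 5 of them. Its log2 effect was higher at 4 h by 1.65 for TRAP1 (adjusted p 9.58e-18), by 0.97 for TRAP-1-NegB (adjusted p 1.39e-08), by 1.46 for TRAP-1-NegP (adjusted p 1.68e-15), by 0.47 for JQ1 (adjusted p 0.000679) and by 1.46 for MS78 (adjusted p 1.28e-14). The SREBF2 effect of TRAP-1-NegP was higher at 4 h by 0.54 (adjusted p 0.000333), and the MYLIP effect of JQ1 by 0.59 (adjusted p 0.0305), a call lost in 6 of 12 fits without 1 library. The INSIG2 effect of TRAP1 differed by −0.70 (adjusted p 0.0317). This call was lost in 4 of 12 fits without 1 library. Without the first TRAP1 library at 4 h the value was −0.45 (adjusted p 0.190), and it was also lost without the third DMSO library at 2 h (0.0789), the first DMSO library at 4 h (0.0655) or the third TRAP1 library at 2 h (0.0999). The SCAP effect of MS78 differed by −0.41 (adjusted p 0.0161), a call lost in 3 of 12 fits without 1 library. Without the first MS78 library at 2 h, which stood apart, the value was −0.31 (adjusted p 0.0910), and the call was also lost without both libraries that stood apart (adjusted p 0.0755) and with only the groups compared (adjusted p 0.0822).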

How the results depend on the processing

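Of the members' recomputed values and their alternatives, 1665 kept their side of the threshold under another setting, 30 were newly called and 21 were lost. Leaving out 1 library kept 1469, newly called 25 and lost 90. No called member reversed its direction under any of these alternatives. Fitting only the groups compared gave 5 members called for TRAP1 and 5 for JQ1 against DMSO at 2 h (each 3 as reported), 2 for TRAP1 against TRAP-1-NegP at 2 h (1), and for the time differences 2 for TRAP-1-NegB (1), 4 for JQ1 (2) and 1 for MS78 (2). Without both libraries that stood apart, 5 members were called for TRAP1 against DMSO at 4 h (3), 4 for TRAP1 against JQ1 at 4 h (2) and 4 for the JQ1 time difference (2), and length-scaled counts also gave 4 for the last. With no count filter, 1 member transcript was called after TRAP-1-NegP (2).

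Without 1 library, the members called ranged from 2 to 4 for MS78 against DMSO at 2 h (2 as reported), 3 to 4 for MS78 at 4 h (5), 1 to 2 for TRAP-1-NegB at 2 h (2) and at 4 h (2), 3 to 6 for TRAP-1-NegP at 2 h (7) and 3 to 5 for TRAP1 at 4 h (3). Ranges were 2 to 4 for TRAP1 against JQ1 at 4 h (2) and for TRAP1 against TRAP-1-NegB at 2 h (4). Time differences ranged from 1 to 2 for JQ1 (2), 1 to 3 for MS78 (2) and 1 to 3 for TRAP1 (2), and member transcripts from 1 to 2 after JQ1 (1) with 1 in each fit after TRAP-1-NegP (2).

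Genes called over the whole table moved by over 1.5 times as follows. Fitting only the groups compared gave 2695 for TRAP-1-NegB at 2 h (1641), 319 for MS78 at 2 h (2390), 1112 for TRAP1 against TRAP-1-NegP at 2 h (120), 1036 for TRAP1 against JQ1 at 2 h (298), 1602 for TRAP1 against MS78 at 2 h (3388), 3318 for JQ1 against TRAP-1-NegP at 2 h (1935), and 646 (372) and 833 (2282) for the TRAP-1-NegB and MS78 time differences. DESeq2 gave 234 for TRAP-1-NegB at 4 h (154), 250 for TRAP1 against TRAP-1-NegP and 553 for TRAP1 against JQ1 at 2 h. Without both libraries that stood apart these 3 were 378, 463 and 693. The same setting gave 715 and 1299 for the TRAP-1-NegB and MS78 time differences. With no count filter TRAP-1-NegB at 4 h had 248 and TRAP1 against TRAP-1-NegP at 2 h had 243. Without 1 library, counts fell as low as 92 for TRAP-1-NegB at 4 h, 1352 for MS78 at 4 h (2290), 54 for TRAP1 against TRAP-1-NegP, 124 for TRAP1 against JQ1 and 1131 for JQ1 against TRAP-1-NegP at 2 h, and 246 and 1133 for the TRAP-1-NegB and MS78 time differences. The causes were not tested.

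No pairing of samples by replicate number was detected. Same-numbered deviations correlated at −0.184 to 0.272 over 23 comparisons, with all 3 over 0.1 in 0 of them. Weaker sharing could go unseen by this rule, and the labels do not say what a number shares. A replicate block lost 4 calls, each with the same value and an adjusted p just past the threshold: SCAP for TRAP-1-NegP at 2 h (0.0537), for MS78 at 4 h (0.0550) and for TRAP1 against TRAP-1-NegB at 2 h (0.0536), and SREBF2 for TRAP-1-NegP against TRAP-1-NegB at 2 h (0.0579). On the TPM scale all genes shifted by a median of −0.35 for TRAP1 and −0.21 for TRAP-1-NegP at 4 h, which turns the sign of the uncalled TRAP1 values of SREBF1, SREBF2 and SCAP and of the uncalled TRAP-1-NegP value of SCAP (−0.048 on the TPM scale). Depth limits ABCG1, with at most 14 counts in a library.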
